A study of Homo sapiens with 6 samples.

Results

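Glutamine carbon enters the tricarboxylic acid cycle through glutamate and 2-oxoglutarate, and 9 genes of that route were followed here: GLUD1, GLUL, OGDH, the aminotransferases GOT1, GOT2 and GPT2, and the mitochondrial carriers SLC25A12, SLC25A13 and SLC25A22. They were taken by gene symbol from a table of 54261 rows, and all 9 were among the 15391 genes with enough reads to be tested. RNA came from PC9/GR cells. PC9 is a human lung adenocarcinoma line, and the labels do not spell out GR, though the series as titled concerns glutamine metabolism in cells that resist EGFR inhibitors. The control group was 3 libraries of cells given si-NC, the control small interfering RNA (siRNA), and the knockdown group 3 libraries of cells given si-MYLK-AS1, an siRNA against the long non-coding RNA MYLK-AS1. The sources used here do not give the siRNA sequences, their number, the dose or the time of harvest. Every library is of the same line, and the labels do not say whether repeats were separate cultures, so p-values measure the spread between these libraries, which may be technical. In bulk RNA, a change in the share of cells that express a gene and a change in RNA per cell cannot be told apart.

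As background, glutamine is first split into glutamate and ammonia, and glutamine synthetase runs the reverse step. Glutamate becomes 2-oxoglutarate either through glutamate dehydrogenase, which releases ammonia, or through aminotransferases, which pass the nitrogen on to make aspartate, alanine or serine. The aspartate-glutamate carriers exchange these amino acids across the inner mitochondrial membrane, and with the cytosolic and mitochondrial aspartate aminotransferases and malate dehydrogenases they form the malate-aspartate shuttle, which moves reducing equivalents into mitochondria.

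The members divided evenly. SLC25A13, GPT2 and SLC25A12 rose in the knockdown, GLUD1, GOT1 and OGDH fell, and GLUL, GOT2 and SLC25A22 did not pass (edgeR's quasi-likelihood test, Benjamini-Hochberg adjusted p below 0.05 across every tested gene). So 3 of 9 rose, where 21.3% of all tested genes did, and 3 of 9 fell, where 20.7% did. Depth-scaled read counts (CPM, with TMM factors) did not overlap between the groups for 6 of 9 members, against 52.2% of all tested genes. The median log2 fold change of the members was -0.083, and that of all tested genes was -0.0005. GLUD1 was the only member past 2-fold.

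**Figure D1:**
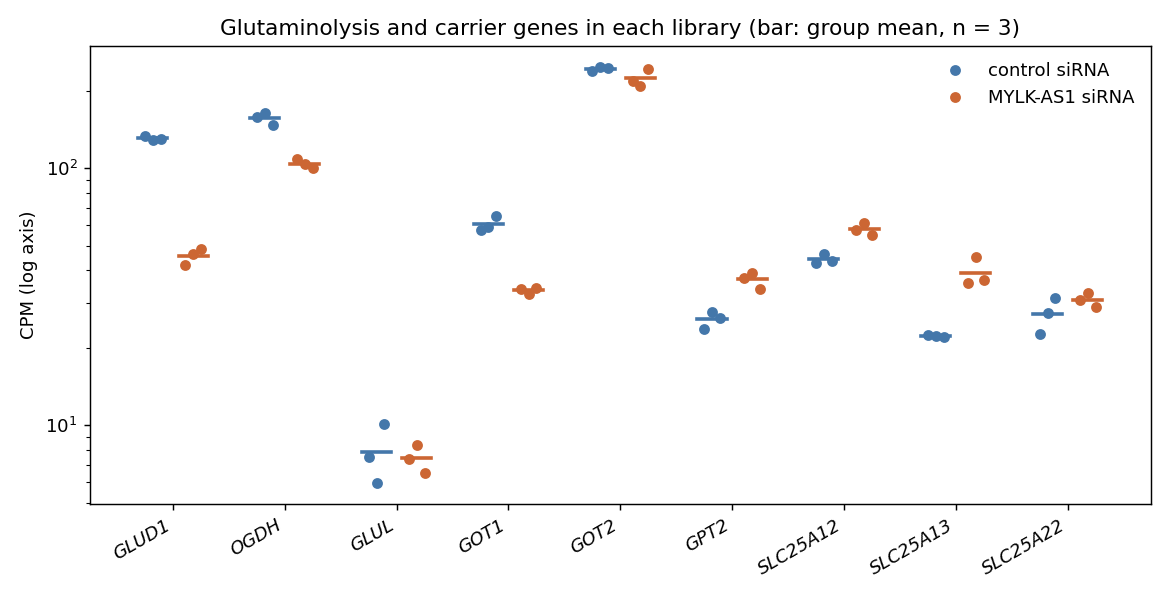
CPM of each member in every library, on a log axis, with 3 control and 3 knockdown libraries per gene as points and the group mean as a bar. GLUD1, OGDH and GOT1 lie lower in every knockdown library, GPT2, SLC25A12 and SLC25A13 lie higher in every knockdown library, and the points of GLUL, GOT2 and SLC25A22 overlap between the groups.

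Facts of the whole series that bear on these values are few. Depth was 7551303 to 11055408 reads a library, and the summed reads of a member in a group of 3 ran from 209 for GLUL in the knockdown to 7390 for GOT2 in the control. Values of single libraries are given below in the order of replicates 1 to 3. Reads of MYLK-AS1 numbered 20, 16 and 19 for the control and 0, 5 and 4 for the knockdown, lower in every knockdown library (log2 fold change -2.43, SE 0.60, adjusted p = 0.00326). The 0 reads of knockdown replicate 1 allow up to 0.274 CPM, a floor of 3 counts that covers counting error only. Of 10 lung and epithelial markers, KRT7, KRT8 and KRT18 stood at 2339.8 to 4677 CPM, while SFTPB and SFTPA1 had no read in any library, NKX2-1 stayed at or below 0.913 CPM and EPCAM at or below 1.67 CPM. The summed level of these 10 markers, carried by those 3 keratins, was 11846 to 13869 CPM in the control and 7622 to 8227 CPM in the knockdown. KRT7, KRT8, KRT18, EPCAM and CDH1 fell, and KRT19 rose from 84.0 ± 9.89 to 109 ± 5.52 CPM (SD, n = 3 each), so 6 of 10 were called, 5 of them down, where 20.7% of all tested genes fell and 21.3% rose. The 10 include SFTPB and SFTPA1, which could not be tested, while the percentages are of tested genes only. The part of these markers in the values below was not tested. Of the leukocyte markers, PTPRC and CD3E had no read in any library, and CD14 had 30.5 to 42.6 CPM in the control and 19.2 to 23.8 CPM in the knockdown.

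The 6-base word AGCTTA, which an earlier analysis of these same data had singled out in 3' untranslated regions (3' UTRs), occurs once each in the longest annotated 3' UTR of GLUD1 and of GLUL and in none of the other 7 members. Of 11516 tested genes with a 3' UTR of at least 50 bases, 27.6% hold it. The sites of GLUD1, GLUL and GLUD2 (a similar copy of GLUD1) follow, to show the word in its place. They are printed 5' to 3' on GRCh38 with the word in capitals.
GLUD1 site, chr10:87051050-87051079, minus strand: aatgtcatttatAGCTTAtcattcatgtat
GLUL site, chr1:182383824-182383853, minus strand: ctctgaacacgaAGCTTAgtataaactgat
GLUD2 site, chrX:121050016-121050045, plus strand: agtttcatttgtAGCTTAtcattcacgtat
GLUD1 and GLUD2, whose reads cannot be fully told apart, fell, and GLUL was not called. GOT1 and OGDH fell too, and their longest 3' UTRs of 677 and 1067 bases hold no such word. Whether the word has a part in any of these values was not tested.

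RefSeq promoters of 300 bases, from 250 before to 50 after an annotated start, matched 7 of the 9 members by symbol. GPT2 and OGDH had no entry. They were searched on both strands for an ATF4 word (TGATGNAA), an E-box (CACGTG) and an NRF2 word (TGANNNNGC). The ATF4 word was in 1 of the 7 members with a promoter and in 3.62% of all 35116 promoters, the E-box in 2 of 7 members (7.26% of promoters), and the NRF2 word in 5 of 7 (41.8% of promoters). A member with several promoters counts if any holds the word. Promoters of GOT1, which fell and holds the ATF4 word, and of the carrier pair SLC25A12 and SLC25A13, which rose together, are printed 5' to 3' on the gene's strand (GRCh38.p14), with every match in capitals.
GOT1 promoter, chr10:99430575-99430874, minus strand: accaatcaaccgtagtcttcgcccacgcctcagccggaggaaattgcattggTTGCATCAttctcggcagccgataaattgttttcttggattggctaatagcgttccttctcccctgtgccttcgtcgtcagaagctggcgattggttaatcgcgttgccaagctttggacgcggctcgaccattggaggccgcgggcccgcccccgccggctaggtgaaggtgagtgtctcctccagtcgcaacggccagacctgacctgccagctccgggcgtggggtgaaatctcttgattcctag
SLC25A12 promoter, chr2:171894195-171894494, minus strand: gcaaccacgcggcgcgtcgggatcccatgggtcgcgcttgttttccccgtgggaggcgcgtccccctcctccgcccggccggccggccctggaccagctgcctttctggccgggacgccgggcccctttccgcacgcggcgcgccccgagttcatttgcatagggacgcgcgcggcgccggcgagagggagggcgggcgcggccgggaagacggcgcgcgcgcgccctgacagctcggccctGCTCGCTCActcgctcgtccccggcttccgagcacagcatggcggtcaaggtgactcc
SLC25A13 promoter, chr7:96322049-96322348, minus strand: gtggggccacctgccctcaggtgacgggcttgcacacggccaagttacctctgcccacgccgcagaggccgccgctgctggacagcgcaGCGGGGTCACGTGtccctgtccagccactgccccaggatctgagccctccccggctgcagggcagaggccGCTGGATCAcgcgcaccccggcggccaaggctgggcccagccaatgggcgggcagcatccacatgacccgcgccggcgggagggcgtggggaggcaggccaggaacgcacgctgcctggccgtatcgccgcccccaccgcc
The GOT1 match begins at -198 from the annotated start, the bases TTGCATCA on the printed strand. SLC25A12 holds only an NRF2 word, at -8. In SLC25A13 an NRF2 word at -161 overlaps the E-box at -154, and another NRF2 word lies at -91. The GC content of the carrier promoters was 75.3% for SLC25A12 and 74.0% for SLC25A13, against 58.0% for GOT1. A match is a description of letters and not a measured binding site.

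GLUD1 (ENSG00000148672.8, chromosome 10 from 87050486 to 87094866, minus strand) encodes the mitochondrial glutamate dehydrogenase that converts glutamate to 2-oxoglutarate. It stood at 133, 129 and 130.3 CPM in the control and at 41.9, 46.2 and 48.3 CPM in the knockdown. Every knockdown library was far below every control library, and the controls differed by little among themselves. The knockdown kept 34.8% of the control level, a log2 fold change of -1.53 (SE 0.10, 95% interval -1.73 to -1.32, adjusted p = 4.65e-09). Of the 15391 tested genes, 465 had a lower log2 fold change.

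Reads of GLUD1 and GLUD2 cannot be fully told apart. Of 2990 words of 50 bases in the longest coding transcript of GLUD1, 27.5% also occur exactly in a transcript of another gene, 25.8% in GLUD2. GLUD2 (chromosome X from 121047588 to 121050080, plus strand) was listed at 58.8, 55.9 and 58.7 CPM in the control and 22.2, 26.4 and 24.7 CPM in the knockdown (log2 fold change -1.24, SE 0.12, adjusted p = 3.52e-07). With the reads of the pair summed as 1 gene, an alternative chosen after the data were seen, the log2 fold change was -1.43 (adjusted p = 5.26e-09). The annotated pseudogene rows of GLUD1 held 17 reads at most in a whole group (GLUD1P3). Genes whose log2 CPM profile over the 6 libraries lay nearest to that of GLUD1, among 9490 with a mean of at least 10 CPM, were AURKA, ACYP1, GTSE1, RAD54L and HMGN1, at Euclidean distances of 0.124 to 0.184 with log2 fold changes of -1.47 to -1.66. With 3 libraries a group, such a distance weighs mainly the size of the difference between groups.

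OGDH (ENSG00000105953.14, chromosome 7 from 44606572 to 44709066, plus strand) encodes the decarboxylating subunit of the complex that takes 2-oxoglutarate further round the cycle. Its control libraries had 158, 164 and 147 CPM and its knockdown libraries 108, 104 and 100.3 CPM. The groups did not overlap, and the knockdown kept 66.7% of the control level (log2 fold change -0.58, SE 0.09, 95% interval -0.78 to -0.39, adjusted p = 7.01e-05). The other subunits of the same complex went the opposite way. DLST, the succinyl-transferring subunit, went up, with 177 ± 6.93 CPM in the control and 219.8 ± 14.4 in the knockdown (SD over 3 libraries), a log2 difference of 0.31 (SE 0.09, edgeR adjusted p = 0.00982). DLD, the lipoamide dehydrogenase that several mitochondrial complexes share, went from 84.7 ± 1.83 to 122 ± 7.45 CPM, a log2 difference of 0.53 (SE 0.09, edgeR adjusted p = 0.000219). OGDHL, a relative of OGDH, had 16 reads in the control and 15 in the knockdown and was not tested.

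GLUL (ENSG00000135821.18, chromosome 1 from 182381704 to 182392206, minus strand) encodes glutamine synthetase, which makes glutamine from glutamate and ammonia. It was the lowest member, with 68, 62 and 111 reads in the control libraries against 81, 80 and 48 in the knockdown libraries, or 7.56, 5.97 and 10.2 CPM against 7.40, 8.39 and 6.55 CPM. The knockdown libraries lay inside the range of the controls. Its log2 fold change of -0.08 (SE 0.22) did not pass (adjusted p = 0.791), and the 95% interval of -0.55 to 0.38 leaves room for a change of either sign. Without control replicate 3 the sign turned (0.15, adjusted p = 0.653).

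Aspartate aminotransferases of the cytosol and the mitochondrion differed from each other. GOT1 (ENSG00000120053.11, chromosome 10 from 99396870 to 99431569, minus strand), the cytosolic form, stood at 57.3, 58.8 and 65.1 CPM in the control and 33.8, 32.4 and 34.3 CPM in the knockdown. All knockdown libraries were lower, at 55.4% of the control level (log2 fold change -0.85, SE 0.11, 95% interval -1.09 to -0.61, adjusted p = 1.29e-05). GOT2 (ENSG00000125166.12, chromosome 16 from 58707131 to 58734357, minus strand), the mitochondrial form and the highest member, stood at 239, 248 and 245 CPM in the control and 219, 208 and 243 CPM in the knockdown. Knockdown replicate 3 fell among the controls, and the log2 fold change of -0.13 (SE 0.09, 95% interval -0.31 to 0.06) did not pass (adjusted p = 0.27). That interval excludes a fall as large as the one fitted for GOT1. GOT2 shares 1.45% of its 50-base words with other genes, and GOT1 shares none. The GOT2 pseudogene row with the most reads, GOT2P3, had 80 in the control and 103 in the knockdown (adjusted p = 0.229). GOT2P2 had 19 and 27 reads and GOT2P4 had 12 and 26, and neither was tested.

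GPT2 (ENSG00000166123.13, chromosome 16 from 46884378 to 46931297, plus strand), the mitochondrial alanine aminotransferase, rose. It went from 23.7, 27.7 and 26.1 CPM in the control to 37.5, 39.2 and 34.0 CPM in the knockdown. The groups did not overlap, and the knockdown mean was 1.43-fold higher (log2 fold change 0.52, SE 0.13, 95% interval 0.25 to 0.78, adjusted p = 0.00319). GPT, the cytosolic form, had 9 reads in the control and 2 in the knockdown and was not tested, so nearly all reads of alanine aminotransferase were from GPT2.

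Both aspartate-glutamate carriers rose. SLC25A13 (citrin, ENSG00000004864.13, chromosome 7 from 96120220 to 96322147, minus strand) stood at 22.4, 22.3 and 22.2 CPM in the control and 35.8, 45.1 and 36.7 CPM in the knockdown. The controls were nearly equal and knockdown replicate 2 was the highest. The mean was 1.76-fold higher (log2 fold change 0.82, SE 0.13, 95% interval 0.54 to 1.09, adjusted p = 8.55e-05). SLC25A12 (aralar, ENSG00000115840.13, chromosome 2 from 171784370 to 171999859, minus strand) stood at 42.9, 46.5 and 43.4 CPM in the control and 57.3, 61.0 and 55.1 CPM in the knockdown. It too was higher in every knockdown library, 1.31-fold in the mean (log2 fold change 0.38, SE 0.11, 95% interval 0.16 to 0.61, adjusted p = 0.00884). Without knockdown replicate 2 its call was lost (0.35, adjusted p = 0.0508), the only member for which leaving out a library ended a call. The carriers share no 50-base word with each other or with any other gene.

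SLC25A22 (ENSG00000177542.10, chromosome 11 from 790475 to 798333, minus strand) encodes a carrier that moves glutamate with protons into the matrix, without aspartate in exchange. It had 22.7, 27.4 and 31.2 CPM in the control and 30.7, 32.8 and 28.9 CPM in the knockdown. The groups overlapped, and the log2 fold change of 0.18 (SE 0.14, 95% interval -0.11 to 0.47) did not pass (adjusted p = 0.305). SLC25A18, the other glutamate carrier of this kind, had no read in any library.

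Levels were also set per kilobase of annotated exon, a rough scale for comparing genes. In the control, GOT2 led at 64.7 ± 1.23 CPM per kb (SD, n = 3), before GLUD1 (37.2 ± 0.552), OGDH (29.99 ± 1.73), GOT1 (17.9 ± 1.23), SLC25A12 (8.57 ± 0.380), SLC25A13 (6.00 ± 0.0280), SLC25A22 (5.83 ± 0.918), GPT2 (4.06 ± 0.314) and GLUL (0.875 ± 0.234). Among neighbours in that order only SLC25A13 and SLC25A22 overlapped. In the knockdown, GOT2 still led at 59.3 ± 4.83 CPM per kb, and OGDH (19.99 ± 0.766) stood above GLUD1 (12.9 ± 0.929). SLC25A12 (11.2 ± 0.574), SLC25A13 (10.6 ± 1.38) and GOT1 (9.94 ± 0.289) came next, SLC25A13 overlapping both of the others, and then SLC25A22 (6.63 ± 0.417), GPT2 (5.81 ± 0.419) and GLUL (0.824 ± 0.102). The length is the union of all annotated exons, 9032 bases for GLUL, which lowers genes with many rarely used exons. The longest coding transcript of GLUL has 4719 bases. For SLC25A22 the union is 4647 and that transcript 2796 bases, and for SLC25A13 they are 3710 and 3192. Ranks and overlaps among genes at nearby levels therefore depend on the length used. GLUD2 reads were not added to those of GLUD1 here. The place of GLUD1 beside OGDH therefore also depends on how reads of the GLUD1 and GLUD2 pair were assigned.

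GLUD2, with which GLUD1 shares reads, is left out of the shares that follow. Of the summed per-kilobase level of GLUD1 and the 3 member aminotransferases, all of which can turn glutamate into 2-oxoglutarate, GLUD1 held 30.02% ± 0.844 in the control and 14.7% ± 0.882 in the knockdown (SD, n = 3 each). GOT2 held 52.2% ± 0.615 and then 67.3% ± 1.63, GOT1 14.5% ± 0.816 and then 11.3% ± 0.430, and GPT2 3.28% ± 0.221 and then 6.64% ± 0.844. A share rises when another falls, so the larger share of GOT2 goes with a level that was not called changed. These shares depend on the same exon lengths, were computed after the members' values were seen and carry no test.

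**Figure D2:**
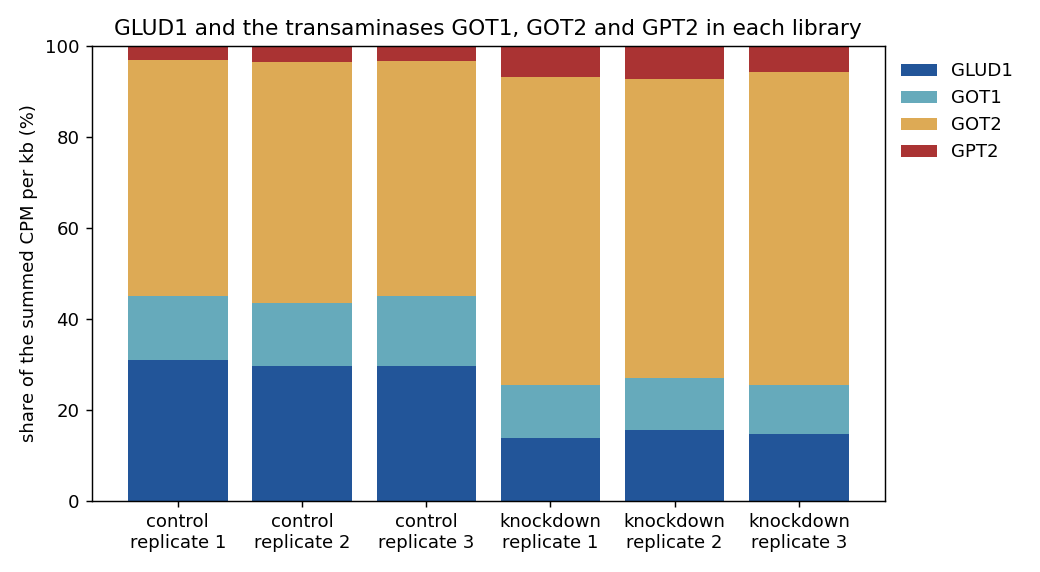
Share of GLUD1, GOT1, GOT2 and GPT2 in their summed CPM per kilobase of exon, in percent, 1 stacked bar per library. GLUD1 holds 29.5% to 31.0% in the control libraries and 13.9% to 15.6% in the knockdown libraries.

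Ratios of reads within a library do not depend on how libraries are scaled, and 5 were compared between related members. There were 0.237 to 0.266 GOT1 reads per GOT2 read in the control libraries and 0.141 to 0.156 in the knockdown libraries. The mean log2 ratio moved by -0.72, from -2.02 ± 0.0913 to -2.73 ± 0.0810 (SD, n = 3 each). SLC25A12 gave 1.92 to 2.09 reads per SLC25A13 read in the control and 1.35 to 1.60 in the knockdown, a difference in log2 ratio of -0.42. GPT2 gave 0.178 to 0.214 reads per GLUD1 read in the control and 0.703 to 0.895 in the knockdown, a difference of 2.04. The ratio of SLC25A22 to GLUD1 differed by 1.72 and that of GLUL to GLUD1 by 1.47. All ratios to GLUD1 carry its own fall (log2 fold change -1.53), so they are not separate results. SLC25A22 and GLUL were not themselves called. In each of the 5 ratios the groups did not overlap, and each two-sided exact permutation test gave p = 0.1, the smallest that 3 against 3 libraries allow, and 0.1 after adjustment over the 5. The exact test of CPM also gave p = 0.1 for the 6 called members, and 0.2 for GOT2, 0.3 for SLC25A22 and 0.8 for GLUL.

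**Figure D3:**
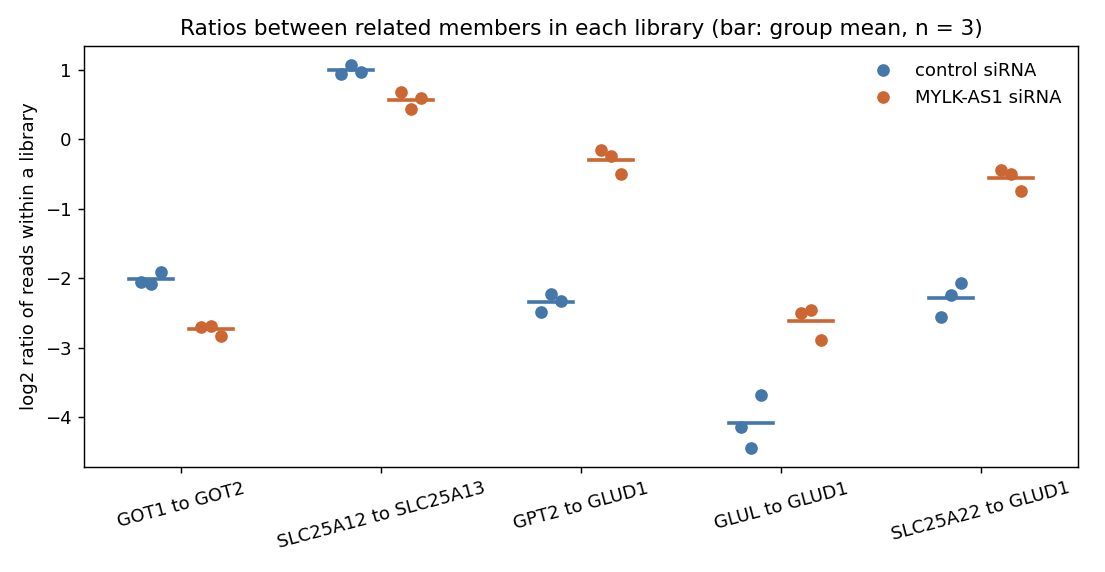
Log2 ratio of reads between related members in each library, with control and knockdown libraries as points and the group mean as a bar. The points of the groups do not overlap in any of the 5 ratios, and GPT2 to GLUD1 has the largest difference, 2.04.

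A list of 36 further genes of glutamate, aspartate and 2-oxoglutarate metabolism gave the setting. Of these 28 were tested, 11 rose and 8 fell, where 21.3% of all tested genes rose and 20.7% fell, and their median log2 fold change was 0.016. GLUD2, which shares reads with GLUD1, is among the 8. The rest of the malate-aspartate shuttle was not called with all 6 libraries. MDH1 and MDH2, the cytosolic and mitochondrial malate dehydrogenases, had log2 fold changes of -0.09 (SE 0.10, adjusted p = 0.513) and 0.18 (SE 0.09, adjusted p = 0.128). Without control replicate 3, MDH2 passed (0.26, adjusted p = 0.0205). SLC25A11, the 2-oxoglutarate-malate carrier of the shuttle, had -0.17 (SE 0.12, adjusted p = 0.291). Of the shuttle's member parts, then, both aspartate-glutamate carriers were higher, GOT1 was lower and GOT2 was not called.

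Other aminotransferases went both ways, with 3 of 7 tested up and 1 down, beside the same 21.3% and 20.7% of all tested genes. In this and the next paragraph the number after a gene is its log2 fold change, and an edgeR adjusted p is printed where it was above that of ASRGL1, 0.00487. PSAT1, which uses glutamate in serine synthesis, rose by 0.75 on the log2 scale (SE 0.11), with 103 ± 11.2 CPM in the control and 172 ± 20.2 in the knockdown (SD over 3 libraries). BCAT1, the cytosolic branched-chain aminotransferase, rose from 1.08 ± 0.0966 to 3.37 ± 2.00 CPM (1.64, SE 0.42), with 1.64 CPM in knockdown replicate 3 and 5.56 in knockdown replicate 2, and lost its call without the latter (1.10, adjusted p = 0.0586). AADAT, at 1.92 ± 0.413 and 3.98 ± 0.519 CPM (1.03, SE 0.30, adjusted p = 0.0112), lost its call without control replicate 1 (adjusted p = 0.0596). KYAT1, a kynurenine aminotransferase that can also act on glutamine, fell from 47.4 ± 3.13 to 26.1 ± 2.23 CPM (-0.86, SE 0.12).

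Enzymes that take the carbon further also changed. The malic enzymes ME1 (cytosolic, 0.74, SE 0.10) and ME2 (mitochondrial, 0.67, SE 0.12) rose and ME3 (mitochondrial, -0.67, SE 0.14) fell. On the route from glutamate to proline, PYCR3, listed under its older symbol PYCRL, rose (0.81, SE 0.15), and ALDH18A1 rose by 0.25 (SE 0.09, adjusted p = 0.0318), a call that every left-out library but knockdown replicate 3 ended (adjusted p up to 0.0852). It also missed the threshold with upper quartile factors (0.0510) or none (0.0554). ALDH4A1, which returns proline carbon to glutamate, fell (-0.88, SE 0.14). UCP2, an inner membrane carrier able to export aspartate, fell (-0.59, SE 0.11). Among users of aspartate and asparagine, the asparagine synthetase gene ASNS rose (0.67, SE 0.12), and the argininosuccinate synthase gene ASS1 (-0.60, SE 0.10) and the asparaginase gene ASRGL1 (-1.005, SE 0.26) fell. NIT2, the omega-amidase, rose by 0.35 (SE 0.13, adjusted p = 0.0338), a call lost without control replicate 2 (adjusted p = 0.0878), control replicate 3 (0.102) or knockdown replicate 3 (0.206), and with the filter at 5 CPM (0.0525). The mitochondrial deacylase gene SIRT3 fell by 0.30 on the log2 scale (SE 0.12, adjusted p = 0.0483). Leaving out any 1 library ended the call (adjusted p up to 0.134). So did DESeq2 (0.0950), no filter (0.0882), limma-voom (0.0502) and the repeat number as a block (0.0525). SIRT4, a sirtuin known to restrain glutamate dehydrogenase, had 6 reads in the control and 1 in the knockdown.

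**Figure D4:**
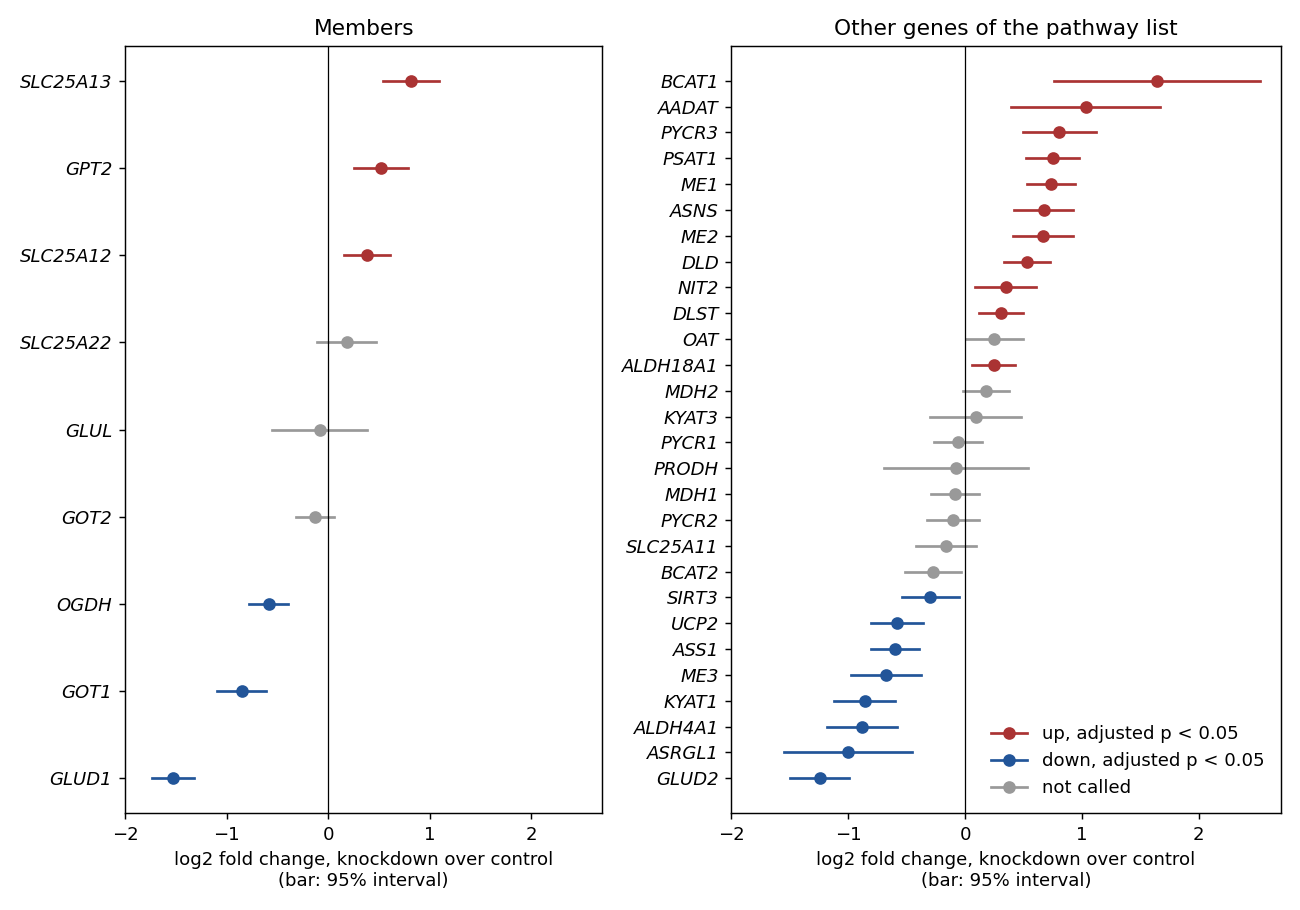
Log2 fold change of knockdown over control for the 9 members and for the 28 tested genes of the further list, with 95% intervals from the edgeR fit. Red points rose, blue points fell and grey points did not pass an adjusted p of 0.05; GLUD1 and its copy GLUD2 have the lowest values of their panels.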

How the data were processed

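Per the labels' protocols, Trizol RNA of 6 libraries went through a kit for the Ion Proton sequencer. The authors deposited raw counts of reads per gene symbol, and the submitters' processing notes name GRCh38. Aligner, counter, annotation and strand were not given in the sources used here. Counts were tested with edgeR 4.0.16 (R 4.3.3): its default expression filter, TMM normalisation, robust dispersion estimates, an F test and Benjamini-Hochberg adjustment over 15391 genes at 0.05. The SE is the log2 fold change divided by the square root of F. Exact permutation over libraries was run for the ratios, and for the CPM of single genes beside the edgeR test that gave the calls. The code was also run on simulated counts with a common dispersion and few changed genes, unlike these data. Its outcome is not given here, so it adds no support to the calls. Members and lists were chosen with earlier results of these data known. Some items of the lists are not reported here and are left out of their counts. All members are named, as are called genes of the further list, with others fixed by name. Alternatives were RLE, upper quartile or no factors, no filter, 5 CPM in 3 libraries, DESeq2 1.42.0, limma-voom (limma 3.58.1), each library left out in turn, a block for the repeat number, a threshold of 0.01, and pseudocounts of 0.5 and 2 CPM for ratios. Positions and transcripts came from GENCODE release 29, promoters from RefSeq (GRCh38.p14). Profiles used log2(CPM + 0.5).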

Additional observations from a re-analysis of the deposited data

How the results depend on the processing

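Over all alternatives tried, 3 members fell in every one, and 3 rose in every one but that without knockdown replicate 2, where 2 did. Leaving out 1 library at a time gave 2 to 3 members up and 3 down, 9 to 11 further genes up and 7 to 8 down, and log2 fold changes of MYLK-AS1 from -2.95 to -1.74. The fitted log2 fold change of GLUD1 alone ranged from -1.56 to -1.46, GOT1 from -0.89 to -0.80, OGDH from -0.63 to -0.55, SLC25A13 from 0.71 to 0.89, GPT2 from 0.46 to 0.58 and SLC25A12 from 0.35 to 0.42. Signs turned, none of them in a called gene, for GLUL (0.15), SLC25A11 (0.012), PYCR1 (0.029) and PRODH (0.13) without control replicate 3, for MDH1 (0.0037) without knockdown replicate 1, and for KYAT3 (-0.050) and PRODH (0.11) without knockdown replicate 3. The opposite ends of the values with 1 library left out were -0.25 for GLUL, -0.27 for SLC25A11, -0.11 for PYCR1, -0.28 for PRODH, -0.18 for MDH1 and 0.22 for KYAT3. The cause was not tested. With the repeat number as a block, 3 members rose and 3 fell, and 12 further genes rose and 7 fell. Under the block OAT gained a call (0.25, adjusted p = 0.0323) and SIRT3 lost its own (-0.30, adjusted p = 0.0525). Same-numbered libraries had deviations correlated at -0.052, 0.078 and 0.064, and differently numbered ones at -0.118 to 0.069. These ranges largely overlap, and the number served as a block only among the alternatives. Without control replicate 3, OAT (0.37, adjusted p = 0.0117) and MDH2 passed. BCAT2 (-0.27, adjusted p = 0.0600) passed with upper quartile factors (0.0412), no factors (0.0366), the filter at 5 CPM (0.0353) and without control replicate 2 (0.0385). GLUL had the fewest reads and the widest interval among the members.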
